A study of Mus musculus with 10 samples.

Results

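The regions described here are stretches of the mouse genome at the ends of protein-coding genes where HA-tagged SETα gave a peak in both addback libraries and HA-tagged SETβ gave a peak in neither. They were found by merging all addback peaks that shared at least 1 bp, and by keeping merged regions that overlapped the 1 kb on either side of an end of a coding gene. On the 17 autosomes analysed, 1486 regions met this rule, of 12081 merged regions at gene ends and 37661 merged regions in all. Outside chromosome 6 there were 1358 such regions, which is 12.0% of the 11319 merged gene-end regions there. Chromosome 6 held 128, or 16.8% of its 762 gene-end regions, and is given apart or marked. The regions were thus chosen by the presence of the addback peaks themselves. For that reason the absence of SETβ peaks and all addback values are a description of how the regions were chosen, and only the overexpression libraries are independent of it.

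The study precipitated HA-tagged SETα or SETβ (SETa and SETb in the labels) from KH2 cells, a mouse embryonic stem cell line with a docking site for a transgene that doxycycline switches on. The addback lines were KH2 SET-KO pBS31-HA-SETa and KH2 SET-KO pBS31-HA-SETb, in which endogenous SET was knocked out. The overexpression lines were KH2 pBS31-HA-SETa and KH2 pBS31-HA-SETb, which kept endogenous SET. Doxycycline was given to all cells used here at 1 µg/ml for 24 h, and DSG, a crosslinker between proteins, was applied ahead of formaldehyde. They were grown on mouse embryonic fibroblasts, which were depleted before harvest. Each group was a cell line of its own with 2 replicate libraries, so line and group cannot be told apart. The labels do not say that replicates came from separate cultures, and p-values over libraries therefore measure only the spread between these libraries. No background from untagged cells is given, since the 2 samples of SET KO cells that got no doxycycline were not analysed here.

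SET is a histone chaperone of the NAP family that binds histones through its acidic tail, masks histone tails from acetyltransferases and inhibits the phosphatase PP2A. SETα and SETβ come from alternative first exons of the same gene and differ at their N termini. Active promoters in embryonic stem cells mostly lie in CpG islands, where the CpG dinucleotide, elsewhere depleted, is kept and nucleosomes turn over.

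The DNA under some of the strongest of these regions is shown first, with CpG dinucleotides in capitals. The sequences run 5′ to 3′ on the gene's strand from 250 bases before to 50 after the listed start and are from RefSeq, assembly GRCm38.p6. The first 4 are the strongest SETα-only regions outside chromosome 6 that overlap a promoter entry of the gene they are named for, ranked by the weaker of their SETα peaks. Rab33b and Nsfl1c, chosen the same way among regions found in all 4 addback libraries, are shown for comparison. The region named for Tbcb overlaps the entry of its neighbour Polr2i and not its own, and is not shown. Gnb2 encodes a G protein β subunit (chr5:137533257-137533556, minus strand), Tmem181a a transmembrane protein (chr17:6256610-6256909, plus strand), Cfap44 a protein of cilia and flagella (chr16:44394549-44394848, plus strand) and Kcnk12 a potassium channel subunit (chr17:87797945-87798244, minus strand). Rab33b encodes a small GTPase of the Golgi (chr3:51483716-51484015, plus strand) and Nsfl1c the p47 cofactor of the p97 ATPase (chr2:151493932-151494231, plus strand).
Gnb2: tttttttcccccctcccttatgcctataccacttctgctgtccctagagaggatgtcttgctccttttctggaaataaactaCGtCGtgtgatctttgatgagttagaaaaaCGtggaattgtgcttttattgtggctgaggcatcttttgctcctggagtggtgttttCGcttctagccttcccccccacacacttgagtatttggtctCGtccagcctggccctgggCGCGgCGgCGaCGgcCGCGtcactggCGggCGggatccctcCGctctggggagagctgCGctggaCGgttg
Tmem181a: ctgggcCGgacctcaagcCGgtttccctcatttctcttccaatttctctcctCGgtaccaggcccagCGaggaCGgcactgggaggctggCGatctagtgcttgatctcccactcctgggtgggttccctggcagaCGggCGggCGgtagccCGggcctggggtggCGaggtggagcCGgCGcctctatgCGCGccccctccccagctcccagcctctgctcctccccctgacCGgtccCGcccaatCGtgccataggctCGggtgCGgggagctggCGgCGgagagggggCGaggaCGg
Cfap44: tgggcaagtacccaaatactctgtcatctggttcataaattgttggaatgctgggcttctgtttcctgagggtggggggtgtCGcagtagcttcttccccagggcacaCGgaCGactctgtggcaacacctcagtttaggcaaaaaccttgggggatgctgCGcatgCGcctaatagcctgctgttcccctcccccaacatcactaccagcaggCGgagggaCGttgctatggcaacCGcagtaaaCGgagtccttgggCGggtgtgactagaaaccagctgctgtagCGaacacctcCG
Kcnk12: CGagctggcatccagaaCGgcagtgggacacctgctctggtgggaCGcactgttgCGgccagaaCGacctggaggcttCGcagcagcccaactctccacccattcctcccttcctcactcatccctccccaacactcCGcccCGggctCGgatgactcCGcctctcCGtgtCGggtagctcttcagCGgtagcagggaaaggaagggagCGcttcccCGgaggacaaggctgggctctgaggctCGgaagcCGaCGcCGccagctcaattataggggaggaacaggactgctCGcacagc
Rab33b: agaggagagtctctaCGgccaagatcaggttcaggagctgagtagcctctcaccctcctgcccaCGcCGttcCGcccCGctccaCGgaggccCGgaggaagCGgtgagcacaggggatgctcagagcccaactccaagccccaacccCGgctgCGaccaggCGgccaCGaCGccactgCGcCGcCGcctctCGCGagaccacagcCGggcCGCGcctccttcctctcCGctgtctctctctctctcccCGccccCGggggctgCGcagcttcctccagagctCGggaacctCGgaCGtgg
Nsfl1c: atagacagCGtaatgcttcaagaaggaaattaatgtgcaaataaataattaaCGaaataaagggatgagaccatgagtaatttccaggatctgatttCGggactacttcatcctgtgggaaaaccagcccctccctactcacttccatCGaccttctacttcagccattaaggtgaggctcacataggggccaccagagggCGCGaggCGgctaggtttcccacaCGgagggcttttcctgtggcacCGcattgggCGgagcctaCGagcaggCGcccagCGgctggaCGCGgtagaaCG

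These 4 SETα-only promoters held 17 (Gnb2), 24 (Tmem181a), 12 (Cfap44) and 20 (Kcnk12) CpG dinucleotides, against 28 for Rab33b and 16 for Nsfl1c. All 6 held the hexamer GGGCGG, the GC box bound by Sp and Klf factors, on 1 strand or the other. None of the 6 held CCGGAAG, the core bound by ETS factors. The 6 overlap in CpG content although the Rab33b peaks reached a −log10 p of 108 and 115 in the SETα libraries and those of Gnb2 12.6 and 14.9.

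The next 4 sequences show the ETS core in capitals within 60 bases, for the strongest regions of each kind outside chromosome 6 whose promoter holds it. This display was chosen after the motif shares were seen. Gnai3 (chr3:108146132-108146191, minus strand), a G protein α subunit, and Yipf4 (chr17:74489364-74489423, plus strand), a Golgi membrane protein, had peaks with SETα only. Kctd5 (chr17:24073566-24073625, minus strand), a substrate adaptor of cullin ubiquitin ligases, and Ddost (chr4:138304686-138304745, plus strand), a subunit of the oligosaccharyltransferase, had peaks in all 4 addback libraries.
Gnai3: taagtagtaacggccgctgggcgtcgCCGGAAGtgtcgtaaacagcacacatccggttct
Yipf4: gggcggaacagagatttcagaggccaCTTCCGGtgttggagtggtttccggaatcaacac
Kctd5: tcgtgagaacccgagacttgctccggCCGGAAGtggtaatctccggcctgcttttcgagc
Ddost: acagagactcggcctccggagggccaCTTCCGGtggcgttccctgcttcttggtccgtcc

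Over all promoters on the autosomes outside chromosome 6, those touched by SETα-only regions were as CpG-rich as those of regions found in all 4 libraries, and far richer than promoters with no peak. Of the 1358 regions, 697 (51.3%) overlapped at least 1 of the 300-base promoter entries, which touched 853 entries of 762 genes. Their median GC content was 65.0%, with a median of 25 CpG dinucleotides, and 84.4% of them had a GC content of at least 50% and an observed-to-expected CpG ratio of at least 0.6. Entries under regions with both SETα peaks and 1 SETβ peak (543) had a median GC content of 66.0%, a median of 27 CpG and 87.1% above both limits. Entries under regions found in all 4 libraries (677) had a median GC content of 62.0%, a median of 23 CpG and 83.6% above both limits. Entries with no addback peak (10937) had a median GC content of 52.3%, a median of 6 CpG and 28.2% above both limits. On chromosome 6 the 81 entries under SETα-only regions had a median GC content of 64.0%, a median of 23 CpG and 71.6% above both limits. That share was lower than for the 52 entries there under regions found in all 4 libraries, at 94.2%. It was 73.9% for the 23 under regions with 1 SETβ peak. Promoters of chromosome 18 were not used here.

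Between promoters under SETα-only regions and those under regions in all 4 libraries, the ETS core showed the widest gap in percentage points among the 10 motifs searched. Both strands were searched, and a match is a description of letters, not a binding site. CCGGAAG stood in 22.3% of promoters under SETα-only regions (190 of 853), in 26.9% of those under regions with both SETα peaks and 1 SETβ peak, in 48.3% of those under regions found in all 4 libraries and in 11.9% of all 16489 promoters. GGGCGG ran the other way, at 74.4% (635 of 853), 76.6%, 60.7% and 46.6% in the same order. CCGGAAG and GGGCGG do not contain each other. Within each class of SETα strength the share with the ETS core was highest where both SETβ libraries had a peak. Where the weaker SETα peak had a −log10 p under 5, it was 20.6% (132 of 640 promoters) with 0 SETβ peaks, 25.6% (81 of 317) with 1 and 45.4% (49 of 108) with 2. From 5 to below 8 the shares were 28.4% (58 of 204), 27.8% (57 of 205) and 39.3% (55 of 140). From 8 upwards they were 0 of 11 promoters, 38.1% (8 of 21) and 52.0% (223 of 429), but there the SETα strengths were not matched, since 269 regions with both SETβ peaks and 1 with none reached 15. The GC box followed no single order across these classes. Its shares with 0, 1 and 2 SETβ peaks were 75.6%, 76.0% and 62.0% under 5, 69.6%, 78.0% and 72.1% from 5 to below 8, and 11 of 11, 71.4% and 56.6% from 8 upwards. Median GC content in these groups ranged from 60.3% to 66.7%.

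The other 8 motifs were rarer or closer to the share in all promoters. The cyclic AMP response element TGACGTCA stood in 4.34% of promoters under SETα-only regions, 1.62% of those under regions in all 4 libraries and 2.18% of all promoters. The YY1 motif AAGATGGCG stood in 5.04%, 3.10% and 1.72%, and the octamer of Pou factors ATGCAAAT in 2.34%, 0.591% and 1.68%. As ratios between the 2 kinds of region, the differences at the octamer (20 of 853 against 4 of 677 promoters) and the cyclic AMP response element (37 against 11) exceeded that at the ETS core, on far fewer promoters. The TATA box TATAAA was at 5.39%, 5.02% and 12.6%, below its share in all promoters for both kinds of region. The NRF1 motif GCGCATGCG was at 4.57%, 3.99% and 2.38%, the E-box CACGTG at 9.96%, 8.57% and 7.90%, the CCAAT box CCAATCA at 10.2%, 6.94% and 8.94%, and TCTCGCGAG at 1.64%, 2.51% and 0.892%. Promoters that share a region or a gene are not independent, and no test was made of these shares.

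SETα-only regions sat at gene starts, and their summits, like those of regions with 1 SETβ peak, lay farther from the start and more often downstream of it than those of regions found in all 4 libraries. Of 1082 regions outside chromosome 6 whose nearest gene end had a known strand, 1009 (93.3%, Wilson 95% interval from 91.6%) were nearest to a 5′ end, against 529 of 550 (96.2%) with 1 SETβ peak and 525 of 534 (98.3%) in all 4 libraries. The median distance of the stronger SETα summit from a coding gene end was 304 bp, with quartiles of 150 and 575 bp, against medians of 256.5 bp for regions with both SETα peaks and 1 SETβ peak and 118 bp for regions found in all 4 libraries. Of the 991 regions with a summit within 1 kb of a listed start, 675 (68.1%) had it downstream, against 331 of 510 (64.9%) for regions with 1 SETβ peak and 266 of 526 (50.6%) for regions in all 4 libraries. The 200 bp after the start held 28.1% of these summits and the 200 bp before it 15.2%, whereas the summits of regions in all 4 libraries split into 35.0% after and 42.6% before. The regions had a median width of 514 bp and a range of 201 to 1707 bp, which is not set against the other kinds of region, since those join peaks from more lists. Of the 1358 regions, 268 (19.7%) lay at the ends of more than 1 coding gene, so that some genes below share a region. On chromosome 6 the median summit distance was 313 bp and 62 of 93 summits near a start (66.7%) lay downstream.

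**Figure D1:**
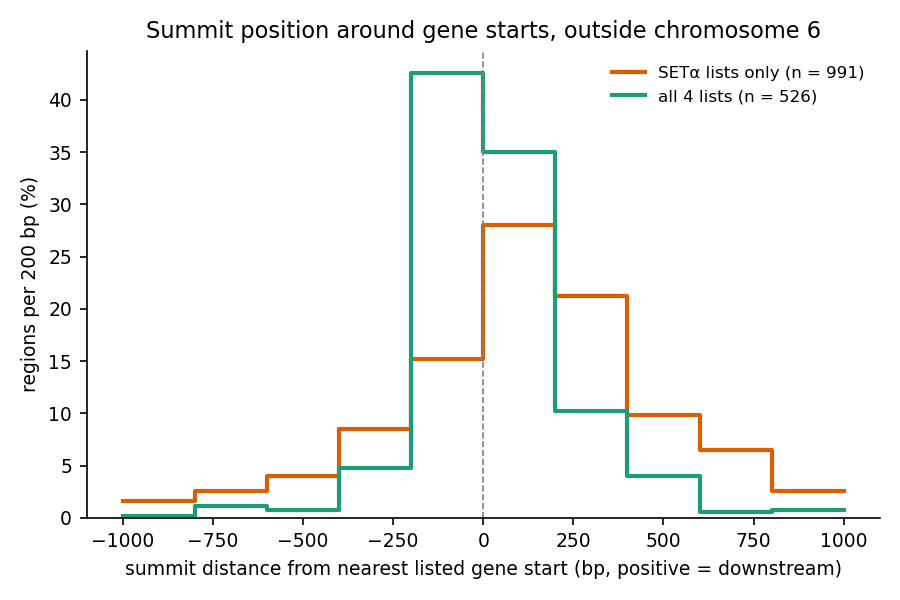
Distance of the stronger SETα addback summit from the nearest listed gene start (x axis, bp, positive is downstream) against the percent of regions per 200 bp (y axis), for 991 SETα-only regions and 526 regions found in all 4 addback libraries, outside chromosome 6. The SETα-only line peaks at 28.1% in the first 200 bp after the start, and the other at 42.6% in the 200 bp before it.

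The peaks behind the SETα-only regions were weak in both SETα libraries, and those of regions with 1 SETβ peak were nearly as weak. Each −log10 p and fold over background is the authors' value for that peak. The median −log10 p was 4.77 in SETα addback 1 and 5.33 in SETα addback 2, against 5.28 and 5.70 in regions with both SETα peaks and 1 SETβ peak and 11.1 and 13.9 in regions found in all 4 libraries. The median fold over local background was 3.24 and 3.65, against 3.27 and 3.90 with 1 SETβ peak and 5.23 and 6.54 in all 4. In the list of 22176 peaks of SETα addback 1 the median rank was 8977, and in the list of 15701 peaks of SETα addback 2 it was 5814.5. Both peaks had a q of at most 0.05 in 570 regions (42.0%), and neither did in 172 (12.7%). A −log10 q of at least 5 in both was reached by 5 regions. The authors' combined list of peaks reproducible between the SETα addback replicates (IDR, irreproducible discovery rate) held 11 of the 1358 regions (0.810%), 11 of the 668 with 1 SETβ peak (1.65%) and 347 of the 659 regions found in all 4 libraries (52.7%). On chromosome 6 the medians were slightly higher, at a −log10 p of 5.41 and 5.70, and that list held 7 of 128 regions.

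Within the SETα-only regions outside chromosome 6 the strengths in the 2 SETα libraries barely followed each other. Across the 1358 regions the −log10 p of both libraries had a Pearson correlation of 0.138 and a Spearman correlation of 0.0353, given as a description since each value had only to pass a peak caller's limit. On chromosome 6 they were higher, at 0.347 and 0.235 across 128 regions. Few values occurred: 98 different −log10 p in SETα addback 1, where 4.77 alone was shared by 225 regions, and 93 in SETα addback 2, where 4.93 was shared by 231.

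**Figure D2:**
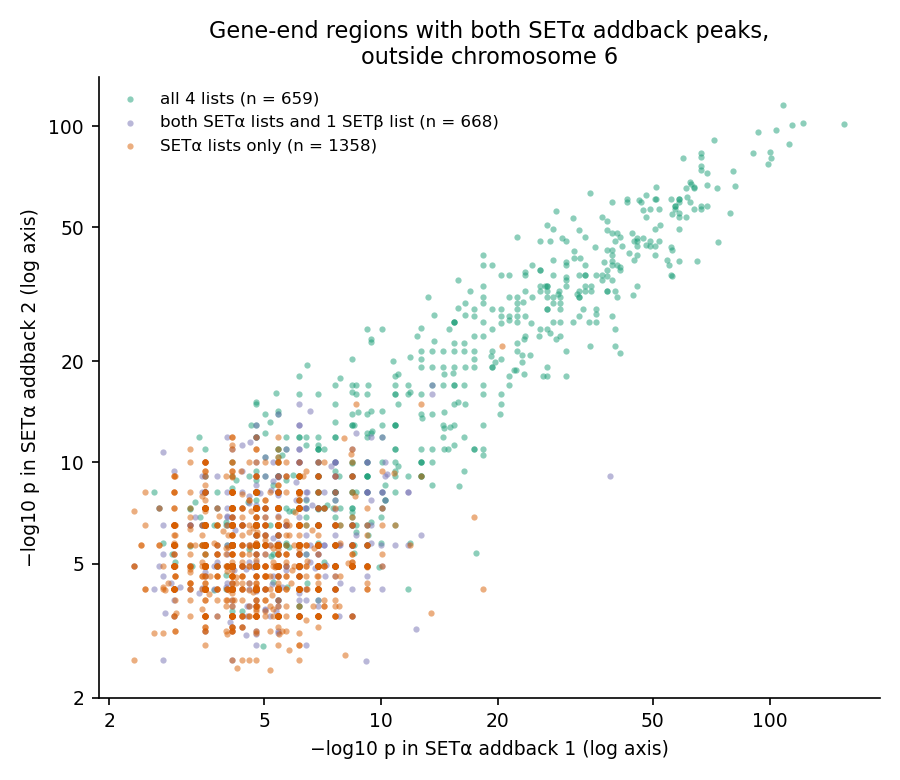
−log10 p of the authors' peak in SETα addback 1 (x axis) and SETα addback 2 (y axis), both on log axes, 1 point per gene-end region with both SETα peaks outside chromosome 6, coloured by the number of SETβ lists with a peak. The 1358 SETα-only regions crowd at the low end, with medians of 4.77 and 5.33, and the highest of them reached 20.4 and 22.1.

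Whether a gene-end region had a SETβ peak went with the strength of its SETα peaks. Of the 2685 gene-end regions outside chromosome 6 with both SETα peaks, 50.6% had no SETβ peak, 668 had 1 and 659 had both. Where the weaker SETα peak had a −log10 p under 4, 68.6% (426 of 621) lacked SETβ peaks. The share was 64.5% (650 of 1008) from 4 to 5, 47.5% (184 of 387) from 5 to 6, 34.0% (85 of 250) from 6 to 8 and 14.3% (11 of 77) from 8 to 10. It was 1.39% (1 of 72) from 10 to 15 and 0.370% (1 of 270) from 15 upwards. Away from gene ends 71.8% of 1536 regions with both SETα peaks lacked SETβ peaks, and on chromosome 6 it was 70.1% of 231. On chromosome 6, 55.4% of 231 gene-end regions with both SETα peaks lacked SETβ peaks, among them 4 of 11 with a weaker −log10 p from 10 to 15 and 0 of 31 from 15 upwards.

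**Figure D3:**
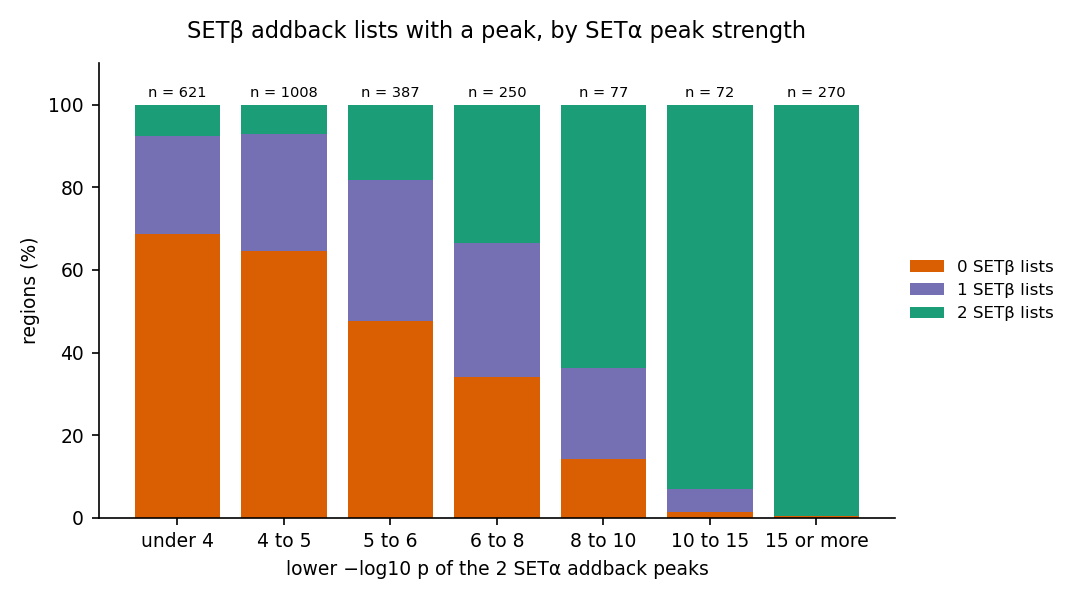
Percent of gene-end regions with both SETα addback peaks, outside chromosome 6 (y axis), that had a peak in 0, 1 or 2 SETβ addback lists, by the lower −log10 p of the 2 SETα peaks (x axis, number of regions above each bar). The share with 0 SETβ lists falls from 68.6% below 4 to 0.370% from 15 upwards.

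The lists differed in length, and the number of SETα-only regions moved with it. The SETα addback lists held 22176 and 15701 peaks, and the SETβ addback lists 2518 and 9768. The mirror rule, with peaks in both SETβ lists and in neither SETα list, gave 31 regions outside chromosome 6 and 1 on it. With the shorter SETβ list, that of replicate 1, left out it gave 1221 outside chromosome 6. With the SETβ list of replicate 2 left out it gave 178. When each list was reduced to its 2518 strongest peaks by −log10 p, 52 SETα-only and 64 SETβ-only gene-end regions were left outside chromosome 6, beside 406 found in all 4. Of the 52, 35 overlapped a region of the original 1358. A q of at most 0.05 in the SETα lists alone left 571 regions, and a −log10 q of at least 5 there left 5. With the SETα list of replicate 2 left out 5062 regions met the rule, and with that of replicate 1 left out 4324. Read totals were not used here, and the part of read depth in the count was not tested.

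Distances to the nearest SETβ peak are a description, since the rule removed overlaps and no distance for other regions is set beside them. The nearest SETβ peak lay at a median distance of 19034 bp, more than 10 kb away for 860 regions (63.3%) and within 1 kb for 254 (18.7%). With those 254 left out, 1104 regions remained outside chromosome 6. The closest calls were at Lpcat1, an acyltransferase of surfactant lipid synthesis, with a SETβ peak 2 bp away, Cacna1b, a calcium channel subunit, at 5 bp, and Pa2g4, a growth-regulated RNA-binding protein, at 7 bp. Just outside the rule were Ccng2, a cyclin, and Tspan9, a tetraspanin gene on chromosome 6, where 8 bp were shared with a SETβ peak, and Mybl1, a germ-cell transcription factor, where 14 bp were shared. At the weak end stood Mkln1, on chromosome 6, with a −log10 p of 2.32 and 3.10 in SETα addback 1 and 2, Nectin2 with 2.32 and 2.59, and Pls1 with 2.32 and 7.16.

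The strongest SETα-only region outside chromosome 6 lay at the predicted gene Gm13889 (chr2:93956236-93957336), with a −log10 p of 20.4 and 22.1 and a fold of 4.25 and 5.50. It was the only gene-end region outside chromosome 6 with a −log10 p of at least 15 in both SETα libraries and no SETβ peak, and the nearest SETβ peak was 53129 bp away. Gnb2 (chr5:137532737-137533778) came next, with a −log10 p of 12.6 and 14.9, a fold of 5.73 and 7.15 and a SETβ peak 2196 bp away. At Tbcb, a tubulin folding cofactor, the region (chr7:30231943-30232938) had a −log10 p of 10.0 and 9.46 and also touched Polr2i, a subunit of RNA polymerase II. Tmem181a had values of 10.8 and 9.31, with a SETβ peak 213 bp away, and Cfap44 values of 12.6 and 9.09, with the nearest SETβ peak 255502 bp away. Both SETα libraries ranked these 5 regions among their strongest 1000 peaks.

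The regions next in strength lay at genes of varied function. Stk11, which encodes the kinase LKB1, had a −log10 p of 8.63 and 14.9 with a SETβ peak 206 bp away. Atg16l1, needed for the autophagosome membrane, had 8.41 and 9.09, and its nearest SETβ peak was 245409 bp away. Dmtf1, a Myb-like transcription factor, had 8.41 and 9.09, Relt, a receptor of the tumour necrosis factor family, 8.41 and 10.9, and Kcnk12 8.41 and 10.0. Ubqln4, a ubiquilin of the proteasome pathway, had 8.41 and 8.20. The predicted gene LOC115488283 had 8.38 and 10.6 and was the only 1 of these 12 with an overexpression peak, in SETβ overexpression 2, at a −log10 p of 5.41. The identical values at different genes are the discrete steps described above.

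On chromosome 6 the strongest regions lay at P3h3, a collagen prolyl hydroxylase, with a −log10 p of 13.98 and 14.8, at Fbxl14, an F-box ubiquitin ligase subunit, with 11.9 and 15.9, and at Iffo1, an intermediate filament family protein, with 12.1 and 11.4. P3h3 had no overexpression peak, Fbxl14 had 1 in SETα overexpression 2 and Iffo1 had peaks in both SETα libraries and in SETβ overexpression 2.

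Coding genes outside chromosome 6 carried a SETα-only region at an end in 1553 of 16884 cases (9.20%) and a region found in all 4 libraries in 833 cases (4.93%). Both kinds stood at 41 genes. Each merged region is of 1 kind only, so a gene with a single region could not carry both. An addback peak of any kind stood at 49.6% of these genes. On chromosome 6 the shares were 11.6% (131 of 1126 genes) for SETα-only regions and 5.95% for regions in all 4 libraries. The share of both-SETα gene-end regions that lacked SETβ ranged from 44.7% on chromosome 1 to 58.2% on chromosome 10, with chromosome 6, at 55.4%, inside that range.

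Among the 17 gene lists examined, histone genes had the widest gap between the 2 kinds of region. Of 69 histone genes outside chromosome 6, including replacement variants, 21 (30.4%) had a SETα-only region and 1 (1.45%) a region in all 4 libraries. Over all coding genes there the shares were 9.20% and 4.93%. An addback peak of some kind stood at 87.0% of the histone genes, against 49.6% of all coding genes. The 21 genes shared 12 regions, most of them in the clusters on chromosome 13. H1f0, which encodes the linker histone H1.0, had a −log10 p of 17.3 and 6.90 (chr15:79028206-79029326), with the nearest SETβ peak 33296 bp away. The single region at H4c18 and H2ac24 (chr13:21833031-21833399) had 6.15 and 8.20. Clustered histone genes are near-identical copies, and how reads that match several copies were treated is not given in the sources used here.

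Chromatin regulators and histone chaperones had SETα-only regions at about 1 gene in 4, beside 9.20% of all coding genes, which had regions in all 4 libraries in 4.93%. Of 63 chromatin modifiers and remodellers, 17 (27.0%) had one and 7 (11.1%) had a region in all 4 libraries. Kdm5b, an H3K4 demethylase, had a −log10 p of 6.15 and 8.20 at a region nearest to an end of Mgat4e. Setd2, the H3K36 methyltransferase, had the same values, and Ring1, a Polycomb ubiquitin ligase, had 6.88 and 4.93. The others included Eed, a core Polycomb subunit, and Smarca4, the ATPase of the BAF remodeller. Of 24 histone chaperones and SET relatives, 6 (25%) had a SETα-only region and 3 (12.5%) a region in all 4. An addback peak of some kind stood at 93.7% of the first list and 91.7% of the second, against 49.6% of all coding genes. Set itself had a SETα-only region, with a −log10 p of 4.40 and 5.70 at its 5′ end (chr2:30062145-30062938) and the nearest SETβ peak 13104 bp away. The SETα addback line carries a SETα transgene, and its part in the reads at Set was not tested. Nap1l1, a nucleosome assembly protein of the same family, had 5.18 and 8.20, and Supt16, a FACT subunit, had 4.77 and 5.70.

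Genes of the pluripotency network and of early lineages had more SETα-only regions than regions in all 4 libraries, which is also the order over all coding genes (9.20% and 4.93%). Of 31 pluripotency genes outside chromosome 6, 6 (19.4%) had a SETα-only region and 1 (3.23%) a region in all 4. Sall4, a zinc finger factor of the network, had a −log10 p of 6.29 and 9.09. Fgf4, the growth factor that primes cells for differentiation, had 6.15 and 5.33 with a SETβ peak 44 bp away, and Klf5, a Krüppel-like factor, had 5.04 and 6.50. Of 42 early lineage regulators, 6 (14.3%) had a SETα-only region, among them Cdx2, the trophectoderm factor, with 4.12 and 6.50, and the mesendoderm factor Mixl1 with 3.99 and 5.56, and 1 (2.38%) had a region in all 4. Of 43 genes of the Wnt and β-catenin pathway 8 (18.6%) had a SETα-only region, including the receptor Fzd3 with 6.88 and 6.50, the destruction complex scaffold Apc with 4.77 and 4.93 and the ligand Wnt10a with 6.15 and 4.20, and 2 (4.65%) had a region in all 4. On chromosome 6 all 3 listed pluripotency genes, Nanog, Dppa3 and Gdf3, carried SETα-only regions, beside 11.6% of all coding genes there. These 3 genes are close neighbours, from the Gdf3 region at chr6:122609823-122610287 to the Nanog region at chr6:122707946-122708535, and lie in the stretch from 118 to 136 Mb, where addback peaks of SETα-only regions were stronger than on the rest of the chromosome. The Nanog region had a −log10 p of 5.65 and 7.15 and no overexpression peak.

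In 4 gene groups regions in all 4 libraries were more frequent than SETα-only regions, the reverse of the order over all coding genes. Of 58 mitochondrial ribosomal protein genes, 7 (12.1%) had a SETα-only region and 15 (25.9%) a region in all 4. The counts were 11 (14.7%) and 17 (22.7%) of 75 translation factors and tRNA synthetases, 12 (13.5%) and 19 (21.3%) of 89 genes of the general transcription machinery, and 2 (5.41%) and 5 (13.5%) of 37 proteasome subunits. Mrpl28 had a −log10 p of 4.77 and 4.93, the initiation factor gene Eif2s2 5.04 and 5.87, the TFIID subunit gene Taf9 9.22 and 6.50, and Psmb4 5.44 and 3.51. Cytoplasmic ribosomal protein genes, also often at regions in all 4 libraries, did not show the reverse order, with 18 (25.4%) and 13 (18.3%) of 71. Rps18 carried both kinds, its SETα-only region, nearest to an end of B3galt4, having 9.22 and 6.10.

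Of the remaining 6 groups, 5 had SETα-only regions more often than regions in all 4 libraries, and 1 had both equally often. The counts were 16 and 9 of 79 membrane trafficking genes (20.3% and 11.4%), 12 and 5 of 64 genes of DNA replication and repair (18.8% and 7.81%), 12 and 8 of 67 splicing genes (17.9% and 11.9%), 6 and 2 of 34 p53 targets (17.6% and 5.88%) and 10 and 9 of 78 genes of oxidative phosphorylation (12.8% and 11.5%). Zinc finger genes named Zfp had 28 of each among 325 (8.62%), against 9.20% and 4.93% of all coding genes. Rab6a, a GTPase of Golgi transport, had a −log10 p of 6.15 and 5.70, and the splicing factor gene U2af2 had 6.15 and 9.09. The region of U2af2 lay nearest to an end of Epn1, and U2af2 also carried a region in all 4 libraries. The apoptosis gene Bax had 7.63 and 5.70 and Cox20, an assembly factor of cytochrome oxidase, 6.15 and 9.09. Over the genes with a SETα-only region, the median of the weaker −log10 p ranged from 3.38 in the proteasome group to 5.19 in oxidative phosphorylation, beside 4.20 over all 1358 regions. In all 17 lists an addback peak of some kind was more frequent than at all coding genes, and no list is called particular to SETα from these shares.

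**Figure D4:**
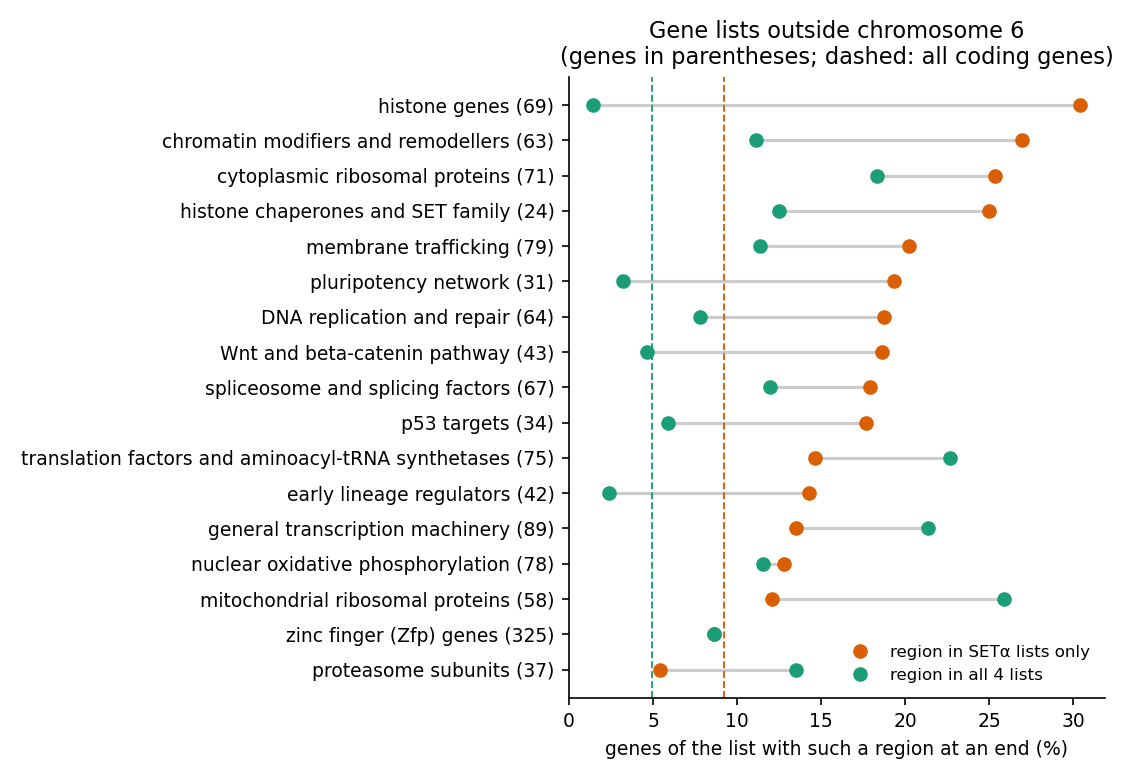
Percent of genes (x axis) in 17 gene lists outside chromosome 6 (y axis, number of genes in parentheses) with a SETα-only region (orange) or a region found in all 4 addback libraries (green) at an end, with dashed lines for all coding genes at 9.20% and 4.93%. Histone genes show the widest gap, at 30.4% and 1.45%, and for Zfp genes both points coincide at 8.62%.

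The overexpression libraries, which the rule did not use, held few peaks at these regions outside chromosome 6. SETα overexpression 1 had a peak at 1 of the 1358 regions (0.0736%) and SETα overexpression 2 at 9 (0.663%), against 0.0618% and 0.486% of all 11319 addback gene-end regions. SETβ overexpression 1 had a peak at 6 (0.442%) and SETβ overexpression 2 at 29 (2.14%), against 0.247% and 1.22% of all. In total 35 regions (2.58%) had a peak in any of the 4 libraries. The mean share was 0.368% ± 0.417 (SD, n = 2) with SETα and 1.29% ± 1.20 (SD, n = 2) with SETβ. The difference, SETα minus SETβ, was −0.920 percentage points, beside a pooled SD between replicates of 0.897, and did not pass the test (exact two-sided permutation test over 4 libraries, p = 0.667, where the smallest p this test allows is 0.33). Without SETβ overexpression 2 it was −0.0736 points. With chromosome 6 included it turned to 0.908 points (exact permutation test, p = 0.667).

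Regions found in all 4 addback libraries had an overexpression peak at 0.152%, 1.06%, 1.21% and 3.03% in the same order of libraries, and those with 1 SETβ peak at 0.299%, 0.749%, 0.449% and 2.10%. SETα-only regions were lower than those found in all 4 in 4 of 4 libraries, by a mean of −0.537 percentage points with an SD of 0.372 (exact two-sided sign permutation test, p = 0.12, the smallest that 4 libraries allow). This test cannot reach a p under 0.05 with 4 libraries. The sign changed when both kinds of region were given the same width: over the 300 bp around each region's middle the difference was 0.170 points (exact permutation test, p = 0.5). With the 1240 strongest peaks of each overexpression list it was −0.148 points (exact permutation test, p = 0.75).

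**Figure D5:**
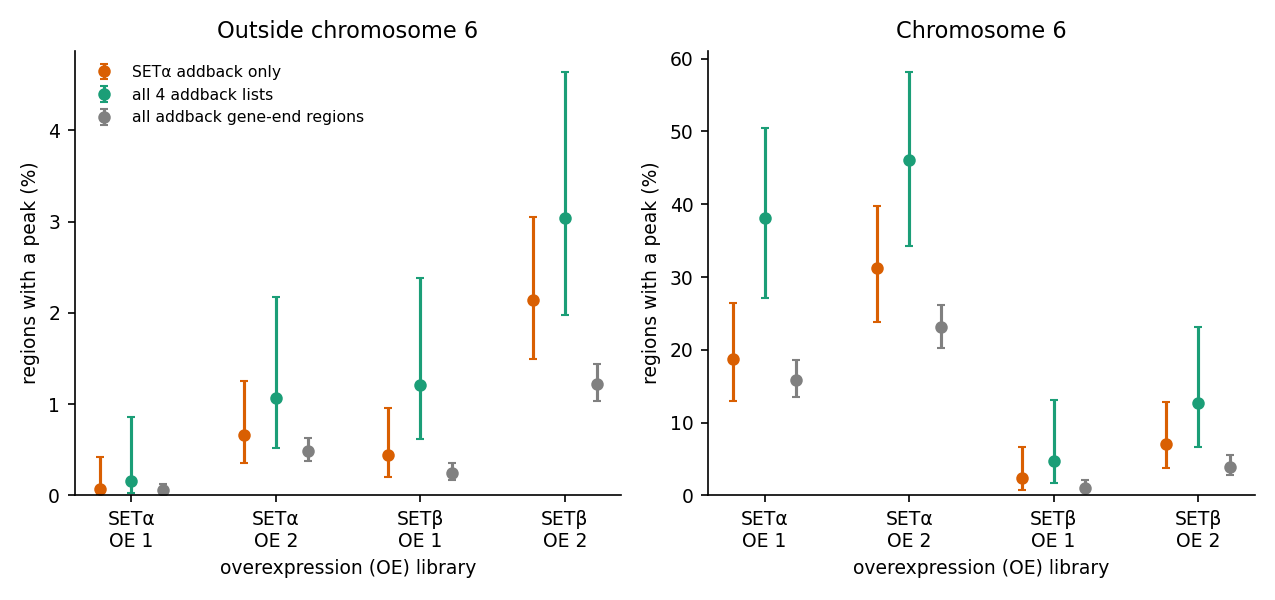
Percent of regions with a peak in each overexpression (OE) library (y axis, own scale in each panel) for SETα-only regions (orange), regions found in all 4 addback libraries (green) and all addback gene-end regions (grey), outside chromosome 6 (left) and on it (right), with Wilson 95% intervals that cover counting error only. Outside chromosome 6 the SETα-only regions reach at most 2.14%, in SETβ OE 2, and on chromosome 6 they reach 31.25%, in SETα OE 2. Regions found in all 4 addback libraries reach 46.0% in that library on chromosome 6.

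Of the SETα-only regions outside chromosome 6 with overexpression peaks, the 5 with the highest −log10 p there were taken after the values were seen. Fcgr3, an Fc receptor, had peaks in all 4 overexpression libraries, at a −log10 p of 5.42 and 5.26 with SETα and 3.65 and 7.09 with SETβ. The predicted gene Gm13278 had peaks with SETβ only, at 4.56 and 6.65. The predicted gene Gm3752 had 5.90 in SETα overexpression 2 and 5.90 and 5.85 with SETβ. LOC115488283 and the histone gene H4c9 had peaks in SETβ overexpression 2 alone, at 5.41 and 5.40.

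On chromosome 6 overexpressed SETα gave peaks at many SETα-only regions, nearly all in the stretch from 118 to 136 Mb. This stretch was set as the run of 1 Mb bins with at least 20 peaks in both SETα overexpression lists, so its SETα shares are a description. SETα overexpression 1 had a peak at 24 of the 128 regions (18.75%) and SETα overexpression 2 at 40 (31.25%), against 15.9% and 23.1% of all 762 gene-end regions there. SETβ overexpression had peaks at 3 (2.34%) and 9 (7.03%), against 1.05% and 3.94%. The stretch held 46 of the 128 regions and 24 and 39 of those SETα peaks, whereas the other 82 regions had 0 and 1. SETβ overexpression had peaks at 2 (4.35%) and 6 (13.0%) of the 46, against 2.38% and 10.0% of all gene-end regions of the stretch. Among the other 82 regions it had peaks at 1 (1.22%) and 3 (3.66%). All gene-end regions of the stretch had SETα overexpression peaks at a like share, 57.6% and 81.9%, beside 52.2% and 84.8% of the SETα-only regions. The addback peaks of the SETα-only regions there were stronger than on the rest of chromosome 6, with a median −log10 p of 6.14 and 6.99 against 4.80 and 5.70. The strongest overexpression peaks were at Cd9, Hdhd5, Foxj2 and Wnk1. Cd9, a tetraspanin, had a −log10 p of 4.75 and 10.5 in SETα overexpression 1 and 2 and 3.43 in SETβ overexpression 2. With SETα, Hdhd5 had 4.56 and 9.87 and Wnk1, a kinase of ion transport, 6.998 and 9.09. Foxj2, a forkhead factor, had 9.42 in SETα overexpression 2 alone. The predicted gene Gm40369, outside the stretch, had 9.07 in SETα overexpression 2 and 5.84 and 5.61 with SETβ.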

How the data were processed

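HA ChIP-seq peak lists of 8 libraries were used, 2 for each of 4 groups. Positions are on GRCm38 (GRCm38 and mm10 in the submitters' processing notes), counted from 1. Bowtie2, MACS2 and deepTools are named in those notes with no role or version, and the control library and filters are not given in the sources used here. Peaks were called by the authors library by library. Their deposited lists give a score proportional to the −log10 p, the fold of the peak over local background as a linear ratio, a −log10 p and a −log10 q for each peak. The highest p in a list was 0.00499. The 4 deposited lists that combine replicates give a scaled IDR score and were used only to count overlaps. The lists hold no read counts, so depth is unknown, and intervals cover counting error only. Chromosomes 8 and 11 and the 2 samples without doxycycline were not analysed here.

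Peaks were merged and compared in Python 3.11.15 with pandas 2.3.3, numpy 2.4.6 and scipy 1.17.1, where overlap meant at least 1 shared bp. Coding genes (18010), strands (14460 of them) and promoters (17653) came from RefSeq tables of GRCm38.p6. A region was named by the coding gene end nearest its middle, whereas genes of the gene lists were counted at any region within 1 kb of an end. Regions were ordered by the lower −log10 p of the 2 SETα peaks and then by the lower fold. Genes named were the first 12 outside chromosome 6, the first 3 on it, the first 3 of each gene list (of which examples are printed, and some are not reported here), those with the strongest overexpression peaks, those nearest the rule's limits and the last 3. Other genes were named after their values were seen. The regions and the 17 gene lists were chosen with earlier results of these data known. Shares over libraries were compared by exact permutation tests. The code for merging and overlap was tested on simulated data.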

Additional observations from a re-analysis of the deposited data

How the results depend on the processing

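The count of 1358 SETα-only regions outside chromosome 6 stayed within 1.5 times under windows of 250 bp (980) and 2.5 kb (1586), with summits required inside the window (1303) and with no SETβ peak within 1 kb (1104). With the 2518 strongest peaks of each list by −log10 p the counts were 52 outside chromosome 6, 24 on it and 64 for the mirror rule, and by fold 63, 12 and 64. A q of at most 0.05 in all 4 lists gave 863 SETα-only and 8 SETβ-only regions outside chromosome 6. In the SETα lists only it gave 571 outside and 69 on chromosome 6, and a −log10 q of at least 5 gave 5 and 9. The mirror rule gave 14 regions with no SETα peak within 1 kb. Leaving out 1 addback library gave 1527 to 5062 SETα-only regions outside chromosome 6, 147 to 372 on it, and 66 to 1221 SETβ-only regions. Fewer lists to pass is part of these last alternatives.

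The difference between SETα and SETβ overexpression turned to 0.908 points with chromosome 6 included, was −1.95 points with peaks within 1 kb and −0.700 points with equal list lengths, and ranged from −1.77 to −0.0736 points when 1 library was left out. The difference between SETα-only regions and those in all 4 libraries turned to 0.170 points over 300 bp, was −1.43 points on all autosomes and −0.340 points within 1 kb, and ranged from −0.690 to −0.417 points when 1 library was left out. The cause of these changes was not tested. With the replicate number as a block, the difference of −0.920 points had an exact permutation p of 0.5, the smallest that pairing allows. Replicate deviations of SETα and SETβ overexpression correlated at −0.0817 over 4574 regions. A region without a peak in a list has no measured strength there, so this value cannot tell whether libraries of the same number shared a batch.

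The exact permutation tests used cannot reach a p of 0.05 with these numbers of libraries. A missing peak is no measurement of absence, since the peak lists hold no value below the authors' limit. Gene ends without a listed strand and promoters not in the tables limit the statements on starts and motifs.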
